A study of Mus musculus with 6 samples.

Results

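Histone cluster genes were examined as a group of 60 mouse genes, read by 90 probes, out of 19057 named genes and 45281 probes on the arrays. Members were chosen by an older gene symbol that starts with Hist1h, Hist2h, Hist3h or Hist4h. The platform's annotation carries current symbols (H2bc11 in place of Hist1h2bj), and 0 of its symbols start with Hist, so its gene identifiers were matched to older symbols in RefSeq's mouse gene table. That table holds 70 such genes, and the 10 with no matched probe were not analysed here. The members were 6 H1, 17 H2a, 15 H2b, 9 H3 and 13 H4 genes. They lie on chromosome 13 (47 genes), chromosome 3 (9 genes), chromosome 11 (3 genes) and chromosome 6 (1 gene).

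The arrays were Illumina bead arrays hybridised with biotin-labelled total RNA from mouse bone marrow cells separated by the surface antigen Ly6C. The Ly6C low fraction was labelled granulocytic progenitors (GP, 3 arrays). The Ly6C high fraction was labelled monocyte-like precursors of granulocytes (MLPG, 3 arrays). The series title places the cells in work on PMN-MDSC, the granulocytic suppressor cells that accumulate in cancer. The sources used here give no strain, age, sex or tumour status of the mice and no full sort gates, and the labels name no treatment or allele. They also do not tie replicates to separate mice, so each p-value reflects only how far these arrays scatter, and that scatter may be technical.

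The core histones H2A, H2B, H3 and H4 form the octamer around which DNA is wrapped, and the linker histone H1 binds the DNA that enters and leaves it. Most genes of the histone clusters lack introns, and their messengers end in a stem-loop instead of a poly(A) tail. Their expression is tied to DNA replication: NPAT drives their transcription at the histone locus body, SLBP binds the stem-loop, and the messengers are degraded when DNA synthesis stops. Dividing marrow progenitors therefore carry them, and they decline when granulocytes leave the cell cycle. The labels do not say how the amplification before labelling was primed, a step that decides how messengers without a poly(A) tail are read.

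Promoters of 5 members are shown because the results below turn on these genes: H2aw was the member with the largest group difference, H2bc3, H2bc18 and H4c12 followed the replicate number, and H1f2 was a bright linker histone gene that varied within the MLPG group. Each window holds 300 bases, 250 before and 50 after the gene's start, from RefSeq, assembly GRCm38.p6, read 5′ to 3′ on the gene's own strand. Capitals mark matches on either strand to 4 motifs known from histone promoters: the octamer ATTTGCAT (bound by Oct-1), CCAAT (bound by NF-Y), the TATA sequence TATAAA and the H1 box AAACACA. The windows are chr13:23746484-23746783, plus strand, for H2bc3; chr3:96269450-96269749, plus strand, for H2bc18; chr13:21750504-21750803, minus strand, for H4c12; chr11:58954435-58954734, plus strand, for H2aw; and chr13:23738557-23738856, plus strand, for H1f2.
H2bc3: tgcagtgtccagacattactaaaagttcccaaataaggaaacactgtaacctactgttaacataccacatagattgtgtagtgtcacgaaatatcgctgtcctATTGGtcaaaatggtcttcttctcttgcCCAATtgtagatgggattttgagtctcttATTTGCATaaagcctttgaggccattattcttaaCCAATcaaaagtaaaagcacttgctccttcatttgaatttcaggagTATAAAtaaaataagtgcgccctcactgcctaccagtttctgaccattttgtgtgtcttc
H2bc18: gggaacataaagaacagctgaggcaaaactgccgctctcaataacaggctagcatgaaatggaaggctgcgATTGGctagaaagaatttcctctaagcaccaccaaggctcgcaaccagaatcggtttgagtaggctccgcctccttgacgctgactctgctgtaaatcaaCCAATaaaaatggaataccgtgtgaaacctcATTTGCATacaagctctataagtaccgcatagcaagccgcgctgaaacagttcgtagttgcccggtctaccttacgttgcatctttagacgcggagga
H4c12: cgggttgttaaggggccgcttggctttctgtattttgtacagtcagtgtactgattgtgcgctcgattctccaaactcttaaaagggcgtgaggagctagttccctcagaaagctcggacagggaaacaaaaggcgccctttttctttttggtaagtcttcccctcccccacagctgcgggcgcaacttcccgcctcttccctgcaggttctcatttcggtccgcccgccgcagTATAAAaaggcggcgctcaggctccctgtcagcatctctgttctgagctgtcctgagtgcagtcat
H2aw: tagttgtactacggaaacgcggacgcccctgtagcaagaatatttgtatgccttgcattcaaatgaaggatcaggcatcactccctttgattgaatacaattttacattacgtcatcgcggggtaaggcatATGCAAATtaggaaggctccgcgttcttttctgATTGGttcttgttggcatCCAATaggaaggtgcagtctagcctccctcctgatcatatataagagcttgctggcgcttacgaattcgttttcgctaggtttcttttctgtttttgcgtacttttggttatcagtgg
H1f2: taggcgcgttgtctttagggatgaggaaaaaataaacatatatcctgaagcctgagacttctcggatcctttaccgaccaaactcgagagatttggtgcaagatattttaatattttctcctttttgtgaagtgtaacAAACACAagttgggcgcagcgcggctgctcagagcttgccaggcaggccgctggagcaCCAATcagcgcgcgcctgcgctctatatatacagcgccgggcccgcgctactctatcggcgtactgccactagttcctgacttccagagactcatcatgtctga

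H2bc3 and H2bc18 both held the octamer on the gene's strand, its first base 90 and 48 bases before the start. In H2aw the same motif lay on the opposite strand, 119 bases before the start. H4c12 held the TATA sequence alone, 16 bases before the listed start, and H1f2 held the H1 box and 1 CCAAT. A promoter window was found for 54 of the 60 members, all except H2bc21, H2bc4, H2bu1-ps, H3c1, H3c7 and H4c14. The octamer was in 14 of the 54 windows (25.9%), against 1.74% of all 32851 RefSeq promoter windows of the same length. Its holders were 7 of 17 H2a and 7 of 12 H2b genes, with none among the H1, H3 and H4 windows. CCAAT was in 45 of 54 member windows (83.3%, against 37.4% of all), and the 9 windows without it were all from H4 genes. TATAAA was in 32 member windows (59.3%, against 13.6%). The H1 box was in 9 member windows (16.7%, against 7.18%), 5 of them among the 6 H1 genes. These matches describe letters in the window and not binding.

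Values are the authors' normalized intensities, given on their linear scale unless a log2 value is named. Intensities of different probes were not compared as levels. A probe entered the tests where its mean log2 intensity exceeded 7.48, the median over all 45281 probes, and the brightest probe stood for a gene. This kept 55 of the 60 members: 4 H1, 16 H2a, 13 H2b, 9 H3 and 13 H4 genes. The 5 below the limit had a mean log2 between 7.06 and 7.38. They were H1f4, the testis gene H1f6, the testis gene H2ac1, H2bu1-ps and H2bu2. A further limit applies at the bright end. Of the kept H2a genes, 6 (H2ac7, H2ac10, H2ac13, H2ac20, H2ac22 and H2ac24) had a mean log2 above 15, close to the highest intensity in the data (71670, or 16.13 on the log2 scale), so a difference there could be compressed. Many members are near-identical copies of one another, and the probes were not checked against all copies, so values of single genes are uncertain. Probes of different members may read the same messengers, so a count of members is not a count of independent readings.

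The labels and the cell markers were compared once over the arrays. The 9 myeloid progenitor markers (Mpo, Elane, Kit and others) were all kept, with a mean log2 per array of 14.24 to 14.42 in GP and 14.18 to 14.32 in MLPG. Some of them, Mpo and Elane included (66265 to 71012), were near the highest intensity, so a difference could be compressed. Of 11 mature neutrophil markers, 10 were kept, with a median log2 difference of -0.12. limma called 2 of them lower in MLPG, against 0.369% of all features. For 5, MLPG was lower without overlap, against 9.66% of all features. The summed intensity of 9 monocyte markers was 46709 to 70887 in GP and 93769 to 108433 in MLPG. A large part came from Ly6c1, a gene of the sort antigen, at 31550 to 40412 in GP and 43067 to 53055 in MLPG. A higher Ly6c1 in the Ly6C high fraction is favoured by the sort itself. The 9 markers had a median log2 difference of 1.37, and Ly6c1 had 0.41. For 6 of 7 eosinophil markers that were kept, the summed intensity was 56298 to 132477 in GP and 4444 to 7570 in MLPG. Most of it came from Prg2.

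No histone gene differed between MLPG and GP by the test across all features. limma called 0 of the 55 members at an adjusted p under 0.05, where it called 79 of 15440 features (0.512%). At an unadjusted p under 0.05 it called 2 members, H2aw and H2bc1, against 14.7% of all features. The median difference of the 55 members, MLPG minus GP, was -0.03 on the log2 scale, and that of all features was 0.01. The members ranged from -0.46 (H4c14) to 0.71 (H2aw), and 21 were above 0 and 34 below, where 51.7% of all features were above 0. In bulk samples such as these, fewer cells of a type and less RNA per cell cannot be told apart. The standard error of a member's difference had a median of 0.21 and reached 0.46. With the replicate number as a block, which takes out what same-numbered arrays share, it had a median of 0.09 and reached 0.21. The blocked fit had 8 members at an unadjusted p under 0.05, against 21.2% of all features. MLPG was below GP in every numbered pair of arrays for 16 members, against 20.8% of all features, and above it in every pair for 5, against 21.8%. The groups did not overlap for 3 members (H2aw and H2bc1 higher in MLPG, H2ac7 lower), against 20.4% of all features (10.7% higher and 9.66% lower). H2ac7 is one of the genes near the top of the scale, and its difference was -0.03. H2bc1 passed the filter only through its MLPG arrays, which favours a higher MLPG value. Its place in these counts is therefore no evidence of a difference.

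**Figure D1:**
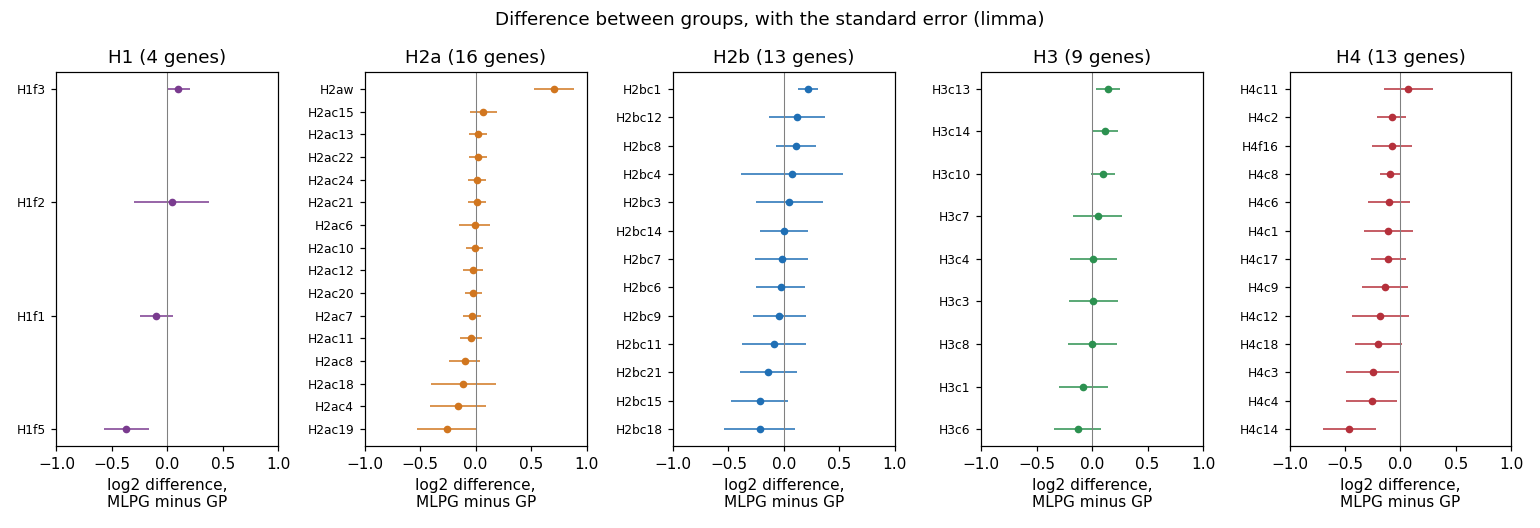
Difference between MLPG and GP on the log2 scale (horizontal axis) for each of the 55 kept histone genes, in 5 panels by class. Points are limma estimates and bars their standard errors. H2aw stands apart at 0.71, and H4c14 lies lowest at -0.46.

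H2aw, on chromosome 11, encodes an H2A protein outside the large clusters. Its intensities were 178, 252 and 247 in GP and 292, 440 and 377 in MLPG. All 3 MLPG arrays were above all 3 GP arrays. The means were 226 ± 41.1 (SD, n = 3) and 370 ± 74 (SD, n = 3), a log2 difference of 0.71 with a standard error of 0.18. In limma its adjusted p was 0.16, which did not pass. With the replicate number as a block, limma called 630 features (4.08%) and H2aw was the 1 histone gene among them, with a standard error of 0.09 and an adjusted p of 0.0098. Those 630 were 230 higher in MLPG (1.49%) and 400 lower (2.59%). The call of H2aw was lost without the arrays numbered replicate 3, as were most calls over all features. Without that pair the difference was 0.76 and limma's adjusted p 0.14, and the whole fit then called 6 features (0.0389%). Without the pair numbered 1, limma's adjusted p was 0.0072 and H2aw was the 1 histone gene among 465 features called (3.01%). Without the pair numbered 2 it was 0.0022, and the fit called 2056 features (13.3%). Then 3 histone genes were called, H2aw and, lower in MLPG, H2ac18 (-0.46, limma adjusted p = 0.027) and H2ac19 (-0.44, limma adjusted p = 0.021). The pair left out was the one in which MLPG was above GP for H2ac18 (2629 in GP, 3924 in MLPG) and H2ac19 (1341 and 1444). With all pairs, the blocked fit in limma gave these genes adjusted p-values of 0.81 and 0.3. Their calls are therefore no evidence of a difference.

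The other H2a genes lay between -0.26 and 0.07. Their class had a median difference of -0.01, and 10 of its 16 genes were below 0. That median includes the 6 genes near the top of the scale, where a difference could be compressed. H2ac19 read 2917, 1341 and 1867 in GP and 2045, 1444 and 1443 in MLPG, a difference of -0.26 (limma adjusted p = 0.72). H2ac4 read 1888, 1357 and 1173 in GP and 1860, 1070 and 1087 in MLPG (-0.16, standard error 0.25). H2ac8 read 2473, 2337 and 2532 in GP and 2636, 1814 and 2500 in MLPG (-0.10, standard error 0.14). The groups overlapped for all 3 of these genes. In H2ac19 and H2ac4, replicate 1 was the brightest array of each group.

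H2b genes had a median difference of -0.02, with 5 of 13 above 0. H2bc1, the testis H2B gene, lay just above the limit on low values, at 178, 168 and 159 in GP and 184, 208 and 197 in MLPG. The mean log2 of its GP arrays alone lay below that limit, so H2bc1 was kept only through MLPG. Its groups did not overlap, and its difference was 0.22 with a standard error of 0.09 (limma adjusted p = 0.33). H2bc15 read 2888, 1594 and 1996 in GP and 2532, 1394 and 1650 in MLPG (-0.22). H2bc18 read 620, 316 and 438 in GP and 535, 245 and 410 in MLPG (-0.22). In both, the first array of each group was high and the second low, and the spread within a group exceeded the difference between groups. Within each numbered pair the MLPG value was the lower for both genes. H2bc8 read 2028, 1509 and 1335 in GP and 2137, 1600 and 1512 in MLPG (0.11, standard error 0.18).

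H3 genes had a median difference of 0.01, and 7 of 9 were above 0. H3c13 read 26164, 22743 and 24890 in GP and 25128, 30259 and 26013 in MLPG (0.14, limma adjusted p = 0.6). H3c14 read 17472, 16498 and 16099 in GP and 15857, 20339 and 18412 in MLPG (0.12). For both, the second MLPG array was the brightest of the 6. H3c10 read 20678, 18371 and 21275 in GP and 22021, 23397 and 19286 in MLPG (0.10). H3c6 read 11957, 7976 and 8809 in GP and 11376, 6726 and 8297 in MLPG (-0.13). The groups overlapped for both.

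H4 genes had the lowest class median, -0.11, and 12 of 13 were below 0. None passed limma's test, and all 13 had overlapping groups. MLPG was below GP in every numbered pair for 10 of the 13. Without MLPG replicate 2 the class median was 0.02. H4c14 read 735, 502 and 630 in GP and 574, 303 and 508 in MLPG. Its means were 622 ± 117 (SD, n = 3) and 462 ± 142 (SD, n = 3), a difference of -0.46 with a standard error of 0.24. limma gave an adjusted p of 0.43, and 0.06 with the replicate block. The MLPG value was lower in each numbered pair, as it was for H4c4 and H4c3. H4c4 read 672, 451 and 598 in GP and 576, 329 and 556 in MLPG (-0.26). H4c3 read 598, 405 and 480 in GP and 538, 287 and 444 in MLPG (-0.25). The second array was the lowest of its group in both genes. H4c8 lay just above the limit on low values, at 212, 189 and 205 in GP and 191, 188 and 190 in MLPG (-0.09).

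Of the H1 genes, 4 were kept, with a median difference of -0.03. H1f5 read 1657, 1185 and 1102 in GP and 1242, 804 and 1005 in MLPG, a difference of -0.37 with a standard error of 0.20. limma's adjusted p was 0.44, and 0.1 with the replicate block. MLPG was lower in each numbered pair. H1f2 read 36192, 35242 and 25232 in GP and 28630, 58263 and 21085 in MLPG. Its MLPG values enclosed those of GP, with replicate 2 highest and replicate 3 lowest of the 6, and the difference was 0.04 with a standard error of 0.34. A second H1f2 probe had the same order of MLPG arrays, at 23799, 41853 and 16088, and a difference of -0.13. H1f1 read 351, 321 and 367 in GP and 376, 257 and 351 in MLPG (-0.10). H1f3 read 177, 200 and 197 in GP and 186, 221 and 210 in MLPG (0.10). Both overlapped between groups.

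H2bc4 and H2ac18, named after their values were seen, also split MLPG replicates 2 and 3. H2bc4 read 4561, 5526 and 3301 in GP and 4983, 9035 and 2149 in MLPG, and had the widest standard error of all members (0.46). H2ac18 read 3986, 2629 and 2793 in GP and 3288, 3924 and 1799 in MLPG. For H1f2, H2bc4 and H2ac18 alike, MLPG replicate 2 was the highest of its group and replicate 3 the lowest.

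**Figure D2:**
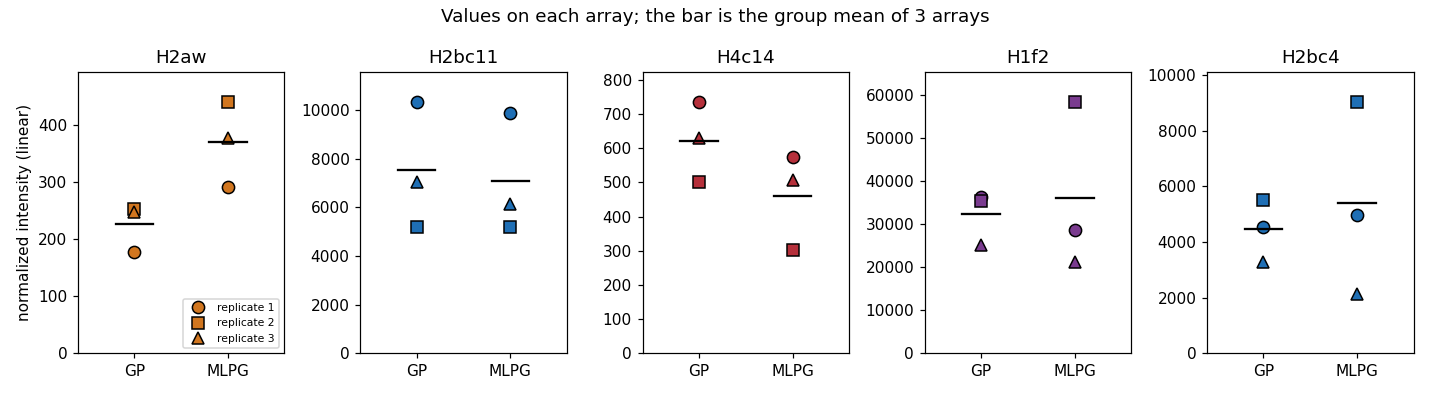
Normalized intensity on a linear scale (vertical axis, from 0) on each of the 6 arrays for H2aw, H2bc11, H4c14, H1f2 and H2bc4. Marker shape gives the replicate number and the bar the mean of 3 arrays. MLPG lies above GP for H2aw, the first replicate is highest in both groups for H2bc11, and MLPG spans a wider range than GP for H1f2 and H2bc4.

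Many members followed the replicate number, a pattern noticed and tested after the values were seen. Replicate 1 was the brightest array of both groups for 31 of 55 members, against 16.5% of all features. These were 11 of 13 H2b, 11 of 13 H4, 6 of 9 H3, 2 of 16 H2a and 1 of 4 H1 genes. Replicate 1 exceeded the mean of replicates 2 and 3 by over 0.5 on the log2 scale in both groups for 17 members, against 0.427% of all features (66 of 15440). The 17 were 10 H2b, 3 H3, 2 H2a and 2 H4 genes. Members of a class may share a signal through near-identical copies, so these counts are not of independent genes. Same-numbered arrays of the groups also varied together over all features, with correlations of their deviations from the group mean of 0.3759, 0.2970 and 0.4683 for replicates 1, 2 and 3. The labels do not say what a replicate number stands for.

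H2bc11 shows the pattern. Its intensities were 10335, 5191 and 7066 in GP and 9904, 5200 and 6125 in MLPG. Replicate 1 was far above the others in each group, and replicates 1 and 2 nearly matched between groups. The excess of replicate 1 over the mean of the others was 0.77 in GP and 0.81 in MLPG on the log2 scale. H2bc3 read 495, 282 and 296 in GP and 533, 255 and 335 in MLPG, an excess of 0.78 and 0.86. H2bc9 read 4886, 2752 and 3245 in GP and 4582, 2803 and 3123 in MLPG. H4c12 read 1748, 1021 and 1478 in GP and 1561, 848 and 1371 in MLPG. In all 3, replicate 1 was the highest and replicate 2 the lowest of each group.

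An F test on the replicate number in limma, with the group in the fit, called 6 members at an adjusted p under 0.05, against 98 features in all (0.635%). They were H2bc11 (limma adjusted p = 0.031), H2bc18 (0.031), H2bc15 (0.035), H2bc3 (0.039), H4c12 (0.04) and H2bc9 (0.048). At an unadjusted p under 0.05 the test called 35 members, against 15.2% of all features. The adjusted count depended on the settings. It was 0 with the lowest intensity subtracted and 16 added, where 1 feature was called in all (0.00648%). It was 19 with no filter on dim probes (254 features, 0.862%) and 14 with a variance trend and robust fit (180 features, 1.17%). The unadjusted count was 34 to 37 over the fit above and the 6 other settings run for this test.

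**Figure D3:**
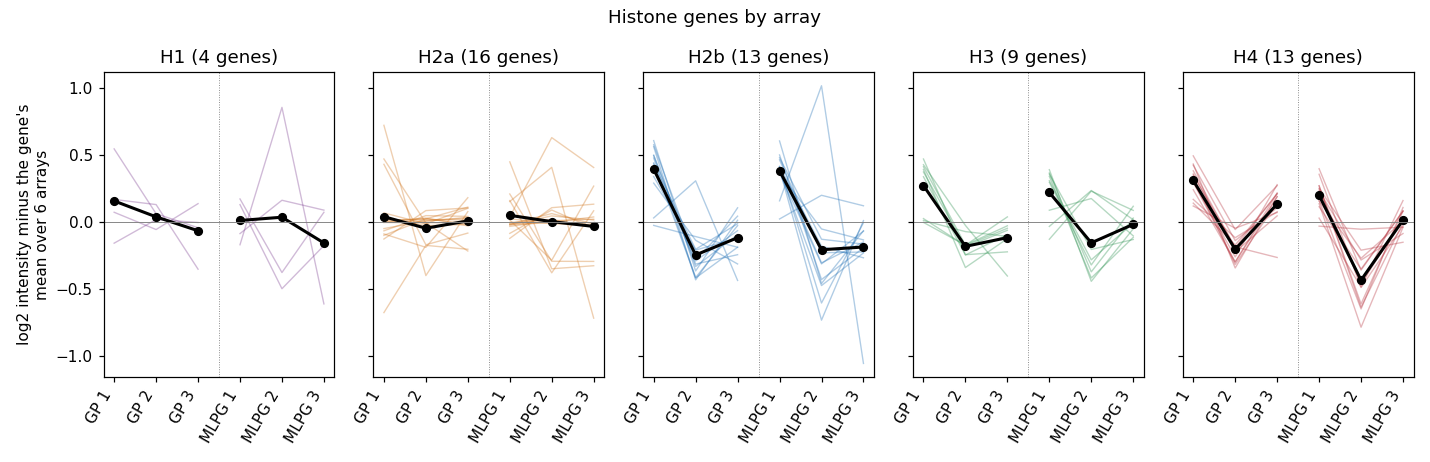
Log2 intensity of each kept histone gene minus its mean over 6 arrays (vertical axis) on each array, in 5 panels by class. Thin lines are genes and black points the class mean; lines join the arrays of a group and carry no order. The H2b mean is 11.48 and 11.47 on the first GP and MLPG arrays and 10.84 to 10.97 on the other 4, while the H2a mean stays within 13.35 to 13.44.

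The classes differed in this pattern, as a description of these 6 arrays. The mean log2 intensity of the H2b genes was 11.48, 10.84 and 10.97 in GP and 11.47, 10.88 and 10.90 in MLPG. That of the H3 genes was 12.72, 12.27 and 12.33 in GP and 12.67, 12.29 and 12.43 in MLPG. The first array was highest in both groups for both classes. The H4 mean was 10.20, 9.69 and 10.03 in GP and 10.09, 9.46 and 9.91 in MLPG. In all 3 classes the second array was the lowest of each group. Gene by gene, replicate 2 was lowest in both groups for 12 of 13 H4, 8 of 13 H2b and 5 of 9 H3 genes, against 14.6% of all features. The H2a mean was 13.43, 13.35 and 13.40 in GP and 13.44, 13.40 and 13.36 in MLPG, and the H1 mean was 10.44, 10.32 and 10.22 in GP and 10.29, 10.32 and 10.13 in MLPG. The median excess of replicate 1 was 0.70 in GP and 0.64 in MLPG for H2b genes, 0.51 and 0.45 for H3, 0.37 and 0.43 for H4, and 0.16 and 0.06 for H1. For H2a it was -0.00 in both groups, where 6 of the 16 genes were near the top of the scale. Other bright H2a genes, H2ac11, H2ac12, H2ac15 and H2ac21 (mean log2 13.61 to 14.63), had -0.22 to -0.07 in GP and -0.24 to 0.07 in MLPG. The brightest H3 genes, H3c10, H3c13 and H3c14 (14.09 to 14.65), had 0.06 to 0.14 and -0.29 to 0.05. Dimmer H2a genes went both ways, as given below. The part of probe brightness in the contrast between classes was not tested.

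**Figure D4:**
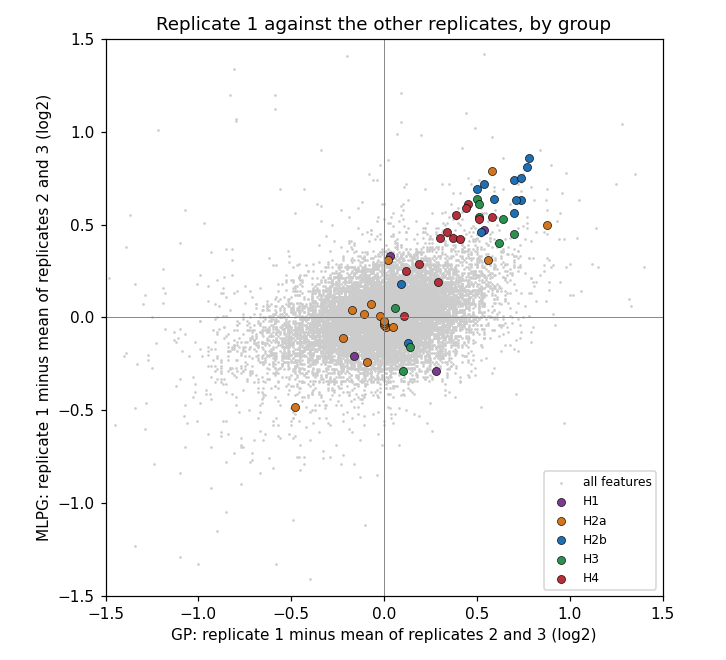
Log2 excess of replicate 1 over the mean of replicates 2 and 3 in GP (horizontal axis) and in MLPG (vertical axis). Grey points are all features, of which 36 fall outside the plotted range, and coloured points are the 55 histone genes by class. H2b genes lie at the upper right, with medians of 0.70 and 0.64, and H2aw at the lower left, at -0.48 and -0.48.

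Some H2a genes below the top of the scale shared the excess and others did not. It was 0.88 and 0.50 in H2ac19 and 0.58 and 0.79 in H2ac4. H2aw went the other way, at -0.48 in both groups. H2ac20, whose brightest probe was near the top of the scale and showed no excess (-0.02 and 0.01), had a dimmer probe at 796, 468 and 566 in GP and 629, 408 and 457 in MLPG. On that probe replicate 1 was highest in each group, with an excess of 0.63 and 0.54. The dimmer probe of H2ac7, with a mean log2 of 13.82, gave -0.01 and -0.13. Those of H2ac10 and H2ac13, still above 15, gave 0.01 and 0.06, and 0.07 and -0.13, so 1 of these 4 genes showed the excess on its dimmer probe. In H3c10, too, the brightest probe gave 0.06 and 0.05 where its dimmer probes gave 0.49 and 0.52, and 0.53 and 0.40. In H3c7 the probes went opposite ways: the brightest gave 0.62 and 0.40, and the next, at 2938, 4353 and 4731 in GP and 3417, 3308 and 4636 in MLPG, gave -0.63 and -0.20. Over the 24 dimmer kept probes of 19 genes, the group difference lay between -0.31 and 0.16 and differed from that of the brightest probe by at most 0.27, with the opposite sign for 11 of the 24. Replicate 1 exceeded the mean of the others in both groups on 13 of the 24.

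Many H2a and H2b genes stand head to head and share the DNA between their starts. In the RefSeq table, 6 such pairs of members were found, and both genes were kept in 5 (H2ac7 and H2bc7, H2ac8 and H2bc8, H2ac11 and H2bc11, H2ac12 and H2bc12, H2ac15 and H2bc15), with 164 to 249 bases between the starts. The H2b gene had the larger excess of replicate 1 in both groups in 5 of 5 pairs. It was 0.52 to 0.77 in GP and 0.46 to 0.81 in MLPG for the H2b genes, and -0.22 to 0.02 and -0.24 to 0.31 for their H2a partners. Of these partners, H2ac7 was near the top of the scale. The H2a probe was also the brighter one in each pair. Mean log2 ran from 11.21 against 10.70 for H2ac8 and H2bc8 to 16.07 against 12.32 for H2ac7 and H2bc7. In H2ac20 and H3c10 the brightest probe lacked an excess that dimmer probes of the same gene had. The part of probe brightness, or of near-identical copies, in the contrast between partners was not tested. Among kept H2b genes the median excess was 0.59 in GP and 0.64 in MLPG for the 7 with the octamer in the promoter window and 0.70 and 0.69 for the 4 with a window but no octamer.

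Other genes of the cell cycle and of other cells were read beside this pattern. The median excess of replicate 1 was 0.01 in GP and -0.00 in MLPG over all features, and -0.08 and 0.03 over 47 S phase genes. Over 28 genes of G2 and mitosis it was 0.37 in GP and 0.06 in MLPG. Replicate 1 was highest in both groups for 13 of the 28, against 16.5% of all features. Their summed intensity was 273732, 217680 and 230753 in GP and 256857, 246403 and 247933 in MLPG. Over 10 of 12 erythroid markers that were kept it was 0.25 and 0.29, and replicate 1 was highest in both groups for 7 of 10. Their summed intensity was 15288 to 17913 in GP and 14022 to 16127 in MLPG, most of it from Tfrc, the transferrin receptor, which is not limited to erythroid cells and read 8921 to 12552. Hbb-b2 and Epb42 were below the limit. Between the sorts, 9 of the 10 were below 0 in MLPG minus GP, with a median of -0.47. Their groups did not overlap for 6, all lower in MLPG, where 9.66% of all features were lower without overlap. limma called 0 of them, against 0.512% of all features. With the replicate block it called 4, all lower, against 2.59% of all features called lower. Hba-a1, an alpha globin gene, read 5869, 2366 and 2190 in GP and 1951, 1077 and 273 in MLPG. Replicate 1 was its highest array in each group. On eosinophil and monocyte markers, GP replicate 1 lay further from the rest of its group than MLPG replicate 1 did, by median excess. Basophil and mast cell markers also did so (-0.29 in GP and 0.14 in MLPG). Erythroid markers did not, nor did mature neutrophil markers (0.06 and 0.10) or megakaryocyte and platelet markers (-0.05 and 0.25). The median excess was -1.85 in GP and -0.06 in MLPG over 6 eosinophil markers, and -0.83 and 0.24 over 9 monocyte markers. The macrophage genes C1qb, C1qc and Cd163, picked after their values were seen, had an excess of 2.80, 2.97 and 1.61 in GP and of 0.54, 0.12 and 0.03 in MLPG. Of other macrophage genes, C1qa had a smaller excess, at 0.92 in GP and -0.04 in MLPG. Adgre1 went the other way in GP, at -0.35, and had 0.30 in MLPG. The part of erythroid, mitotic or other cells in the histone pattern was not tested.

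Genes that make, carry or accompany these histones were read from the same fit. limma called 0 members in each of 5 lists, with and without the replicate block. The share of all features called was 0.512% without the block and 4.08% with it. At an unadjusted p under 0.05, without the block, limma called 0 variants, 2 messenger factors, 2 chaperones, 1 S phase gene and 2 genes of G2 and mitosis. The share of all features at that threshold was 14.7%. Most of the listed histone variants are made independently of replication and from polyadenylated messengers. Of the 13 variants, 10 were kept, with a median difference of -0.03. H2az2, which encodes an H2A.Z variant, read 7436, 7071 and 6106 in GP and 5840, 6370 and 5494 in MLPG (-0.22, limma adjusted p = 0.4). H2aj, which encodes H2A.J, read 2238, 2888 and 2299 in GP and 1848, 2506 and 1962 in MLPG (-0.24, limma adjusted p = 0.52). The groups overlapped in both. Of the factors for histone gene transcription and messenger processing and decay, 32 of 36 were kept, with a median of 0.03. Slbp and Casp8ap2 were below the limit on low values. Npat read 291, 321 and 241 in GP and 254, 318 and 278 in MLPG (-0.00). Lsm10 and Lsm11, which encode proteins of the U7 particle that cuts the messenger's 3′ end, differed by -0.04 and -0.02. Nfyb, a subunit of the CCAAT-binding factor NF-Y, read 5004, 4491 and 4522 in GP and 4144, 3695 and 3582 in MLPG (-0.30, limma adjusted p = 0.23). The groups did not overlap. Snrpf, an Sm protein shared with the U7 particle, read 7131, 9042 and 9162 in GP and 10337, 10337 and 11001 in MLPG (0.33, limma adjusted p = 0.25), again without overlap.

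Histone chaperones carry new histones to DNA, and 25 of 26 were kept, with a median of 0.06. Nap1l1, a chaperone of H2A and H2B, read 12462, 15400 and 14470 in GP and 17042, 16626 and 18326 in MLPG (0.30, limma adjusted p = 0.25). Atrx, which works with the H3.3 chaperone DAXX, read 371, 370 and 391 in GP and 457, 405 and 456 in MLPG (0.22, limma adjusted p = 0.33). MLPG was above GP on every array for both. The 47 of 50 S phase genes kept had a median of 0.03. Gins1, a subunit of the replicative helicase complex, read 2042, 2471 and 2110 in GP and 2779, 2555 and 2596 in MLPG (0.26, limma adjusted p = 0.29). Cdt1, which licenses replication origins, read 10053, 12688 and 12654 in GP and 13263, 15400 and 13653 in MLPG (0.26, limma adjusted p = 0.36). Neither gene's groups overlapped. The 28 of 36 G2 and mitosis genes kept had a median of 0.03. Aurkb, the chromosomal passenger kinase that phosphorylates histone H3, read 9504, 8361 and 8101 in GP and 9931, 10936 and 10273 in MLPG (0.26, limma adjusted p = 0.27). Cdk1, the mitotic kinase, read 13080, 10865 and 12311 in GP and 14615, 13784 and 14981 in MLPG (0.26, limma adjusted p = 0.28). Both were above GP on all 3 MLPG arrays. These genes, like Nfyb and Snrpf, were named for the smallest unadjusted p of their list, which favours groups without overlap. Groups did not overlap for 4 of 25 chaperones, 5 of 47 S phase genes and 3 of 28 genes of G2 and mitosis. All of these were higher in MLPG. For messenger factors it was 3 of 32. Of all features, 20.4% did not overlap, with 10.7% higher in MLPG.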

How the data were processed

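The deposited table of normalized probe intensity values (linear scale, 6 arrays) was used. The submitters' processing notes list GenomeStudio, and its version, normalization and background step are not stated in these sources. Every column of deposited intensity values shared 1 mean (1501), median (179.3), lowest (88.2) and highest value (71670), as quantile normalization across arrays gives, and the background left in them compresses differences of dim probes. A second deposited table has 12 columns whose names match no sample's labels; they were not used, so the raw signals and detection p-values did not enter.

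Values were taken to log2. Probes with a mean log2 above 7.48 were kept (22640), and the brightest probe stood for a gene, which gave 15440 features (11348 named genes, 4092 unnamed probes). MLPG and GP were compared with limma 3.58.1 in R 4.3.3 (lmFit, eBayes, no covariates), with Benjamini-Hochberg adjustment over all features and calls at an adjusted p under 0.05. The script was tested on simulated data. Same-numbered arrays deviated together (correlations of 0.3759, 0.2970 and 0.4683, all above 0.1), so a blocked fit on that number is given where it changes a call. The labels do not state this pairing; it was read from the arrays. The number of arrays limits the precision.

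Values on every array are given for the 4 kept genes of each class with the smallest unadjusted p, for any member with an absolute log2 difference of at least 0.5, and for the 2 such genes of each related list, plus Npat, Lsm10 and Lsm11. H2bc3, H2bc4, H2bc9, H2bc11, H2ac18, H2ac20, H2ac21, H3c7 and H4c12 were named after their values were seen. So were Hba-a1, Tfrc, Ly6c1, Prg2, C1qa, C1qb, C1qc, Cd163, Adgre1 and the dimmer probes of H2ac7, H2ac10 and H2ac13. The members and the gene lists were chosen with earlier results of these data known. Alternatives were another normalization, background subtraction, other filters, the mean of a gene's probes, a variance trend, array weights, the replicate block and leaving out each array. The F test on the replicate number and the fits without a pair of arrays were added after seeing the data.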

Additional observations from a re-analysis of the deposited data

How the results depend on the processing

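Over 14 alternatives, 0 histone genes were called in each except the replicate block, which called 1 (H2aw, 0.71). H2aw was higher in MLPG in all of them, at 0.55 to 0.96 (limma adjusted p from 0.0098 to 0.44), and with the block but without the replicate 3 pair it was 0.76 (limma adjusted p = 0.14). The histone median lay between -0.18 and 0.04. Features called (higher, lower) were 146 (51, 95) with no filter on dim probes, 220 (79, 141) with array weights, 630 (230, 400) with the replicate block and, without 1 array, 2 to 348 (0 to 162, 2 to 186); leaving out GP replicate 2 gave 348, GP replicate 3 gave 25, and each MLPG array 2 or 3. Higher calls were 34 with a variance trend and robust fit. For the replicate number, histone calls were 0 with the lowest intensity subtracted and 16 added (1 feature in all), 19 with no filter (254 features, 0.862%) and 14 with the variance trend (180 features, 1.17%); array weights were not run for it. The cause of these shifts was not tested.

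Signs turned for small differences. Npat was 0.0008 with the lowest intensity subtracted and 0.06 with array weights, where H2ac4 was 0.06 and Lsm11 0.03; H1f2 was -0.04 as the mean of its probes. Without 1 array, ranges that crossed 0 were -0.37 to 0.36 (H1f2), -0.21 to 0.07 (H1f1), -0.53 to 0.03 (H2ac19), -0.42 to 0.04 (H2ac4), -0.20 to 0.07 (H2ac8), -0.47 to 0.01 (H2bc15), -0.48 to 0.09 (H2bc18), -0.04 to 0.28 (H2bc8), -0.34 to 0.04 (H3c6), -0.45 to 0.0014 (H4c3), -0.12 to 0.09 (Npat), -0.10 to 0.05 (Lsm10) and -0.10 to 0.02 (Lsm11). List medians ranged from -0.12 to -0.00 (variants), -0.01 to 0.05 (messenger factors) and 0.01 to 0.08 (S phase) and -0.06 to 0.16 (G2 and mitosis). Class medians ranged from -0.24 to 0.17 (H2b), -0.15 to 0.18 (H3), -0.28 to 0.02 (H4), -0.09 to -0.02 (H1) and -0.01 to 0.00 (H2a), so those of H2b, H3 and H4 changed sign with the array left out. Bright probes near the top of the scale and dim probes near background limit what these arrays can show.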
